A study of Drosophila melanogaster with 8 samples.

Results

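The genes described here are the nuclear genes for the proteins of the mitochondrial ribosome of Drosophila melanogaster. They were taken as all rows of the testis and larval expression tables whose gene symbol starts with mRpL or mRpS, joined between the tables by FlyBase identifier. The testis table held 73 such genes among 15612, with 47 named for the large subunit and 26 for the small subunit. The larval table held 69 among 15735 named genes, with 45 for the large and 24 for the small subunit. A total of 68 members were in both tables by identifier, of the 14225 genes that the tables share, and 74 identifiers were covered in all. The 72 identifiers found in the BDGP6.54 annotation are spread over the X (11), 2L (12), 2R (12), 3L (16) and 3R (21).

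The mitochondrial ribosome translates the few mRNAs that the mitochondrial genome encodes, which are for core subunits of the respiratory chain and the ATP synthase. Its rRNAs are transcribed inside the organelle, while its proteins are encoded in the nucleus, made in the cytoplasm and imported, so the particle depends on both genomes. In the Drosophila testis the mitochondria of each spermatid fuse into a large body, the nebenkern, and then stretch along the growing sperm tail.

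Poly(A)-enriched RNA was sequenced from adult testes and from whole second instar larvae, with 2 libraries in each of 4 groups with about 80 larvae or 100 testes in each by the labels (pairs of testes by the study's methods), from flies kept at 25 °C. The study asked how loss of Tgs1, the enzyme that puts the trimethylguanosine cap on spliceosomal snRNAs, affects RNA in these tissues. The mutant testes were tgs1hypo, the combination of the alleles moiCB0 and tgs1 15-11, which leaves part of the Tgs1 function and lowers both products of a transcript that encodes Moi and Tgs1 together. In the labels the wild-type testes are bam>tgs1;tgs1hypo and the mutant testes bam>moi;tgs1hypo, so by the labels both groups carried tgs1hypo and a cDNA driven by bam-gal4 in early germ cells, with the tgs1 cDNA taken as wild type. The study names these groups wild type and tgs1hypo, and those names are used below, but which genotype the libraries carry is not settled. The mutant larvae were tgs1 2-3, a frameshift made with CRISPR/Cas9, and the wild-type larvae were tgs1 2-4, an allele from the same mutagenesis with intact tgs1 and moi reading frames. Nothing states that the libraries of a group came from separate cultures, so the p-values measure the spread between these libraries, which may be technical.

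Levels are given in FPKM (fragments per kilobase of transcript, scaled to the mapped fragments of the library), as the authors made them. The tables hold no read counts, so the depth of the libraries is unknown and counting error cannot be set. The values of named genes added up to 792501 to 825832 FPKM in the testis libraries and to 589777 to 639074 FPKM in the larval libraries. The shared transcript has 1 row, moi, which read 10.1 and 11.4 FPKM in wild-type testes and 3.81 and 2.71 FPKM in tgs1hypo testes (log2 change -1.47, SE 0.16, limma adjusted p = 0.00039). It read 4.64 and 7.42 FPKM in wild-type larvae and 6.41 and 6.85 FPKM in tgs1 2-3 larvae, and a frameshift need not change the level of an RNA. Reads of a moi or tgs1 cDNA cannot be told apart from those of the locus. All 10 male germline markers were detected in testes, while genes known for the accessory gland had a summed level of 2925 and 3350 FPKM in wild type against 2184 and 2364 FPKM in tgs1hypo testes. The yolk protein genes Yp1 and Yp2 of the adult fat body were at or under 0.125 FPKM in all 8 libraries, while Yp3 read 4.07 and 4.99 FPKM in wild type against 6.10 and 7.73 FPKM in tgs1hypo testes (log2 change 0.51, limma adjusted p = 0.03). In larvae, genes of the mitochondrial genome took 29.0% of the named FPKM in wild-type replicate 1 and 13.9% to 15.2% in the other libraries. The serum proteins of the third instar (Lsp1alpha, Lsp1beta, Lsp1gamma and Lsp2) added up to 450 FPKM in tgs1 2-3 replicate 2, against 0.305 to 52.9 FPKM in the other larval libraries.

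In testes the 73 members ran from 7.00 to 80.8 FPKM in wild-type replicate 1 and from 7.37 to 129 FPKM in tgs1hypo replicate 1. The median member was at 17.3 and 16.4 FPKM in wild type, against 23.1 and 23.9 FPKM in tgs1hypo. Both mutant libraries were the higher ones, and all members passed the filter on low values in each tissue (their mean over 4 libraries had to reach 1 FPKM).

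mRpS21, for a small protein of the small subunit, had the highest level in testes, with 80.8 and 86.2 FPKM in wild type against 129 and 107 FPKM in tgs1hypo. By the mean over the 4 testis libraries mRpL42 was next, at 60.4 and 57.2 FPKM in wild type against 93.8 and 94.7 FPKM in tgs1hypo. mRpS17 followed with 65.7 and 69.7 FPKM in wild type against 76.6 and 74.4 FPKM in tgs1hypo, and stood at place 2 in wild type alone. For each of these genes the mutant libraries lay above the wild-type libraries, but the change of mRpS17 did not pass the test (log2 change 0.16, limma adjusted p = 0.074), while those of mRpS21 (0.49, adjusted p = 0.0043) and mRpL42 (0.67, adjusted p = 0.0002) did.

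The lowest members in testes were mRpS28, with 7.48 and 5.87 FPKM in wild type against 7.80 and 7.63 FPKM in tgs1hypo, and mRpL44. mRpL44, whose human counterpart belongs to the RNase III family, read 8.22 and 7.53 FPKM in wild type against 7.37 and 7.75 FPKM in tgs1hypo. mRpL37, the lowest by the wild-type mean alone, read 7.00 and 6.15 FPKM in wild type against 10.3 and 9.72 FPKM in tgs1hypo. The groups of mRpL44 overlapped and its change did not pass the test, nor did that of mRpS28, while mRpL37 rose (log2 change 0.54, limma adjusted p = 0.008). The order of the levels differed between the tissues, with a Spearman rho of 0.30 between the wild-type testis and the wild-type larval means of 68 members, points that share the libraries of their tissue.

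In testes most members were higher in tgs1hypo than in wild type, by a moderate amount. Of 73 members, 55 rose at an adjusted p under 0.05, while 34.3% of all 11343 genes tested did. By symbol these were 36 of 47 mRpL and 19 of 26 mRpS genes. A single member fell at that limit, mRpL28, where 23.4% of all genes did. The median log2 change of the members was 0.50 (quartiles 0.29 and 0.66), against 0.11 (quartiles -0.30 and 0.43) for all genes tested, so the median member lay 0.385 above the median gene. The median was 0.53 for the mRpL and 0.42 for the mRpS genes, a split by symbol alone. Changes are on the scale of log2(FPKM + 1), tested with limma and adjusted by Benjamini-Hochberg over all genes. In bulk tissue a change in the share of a cell type and a change in RNA per cell cannot be told apart.

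**Figure D1:**
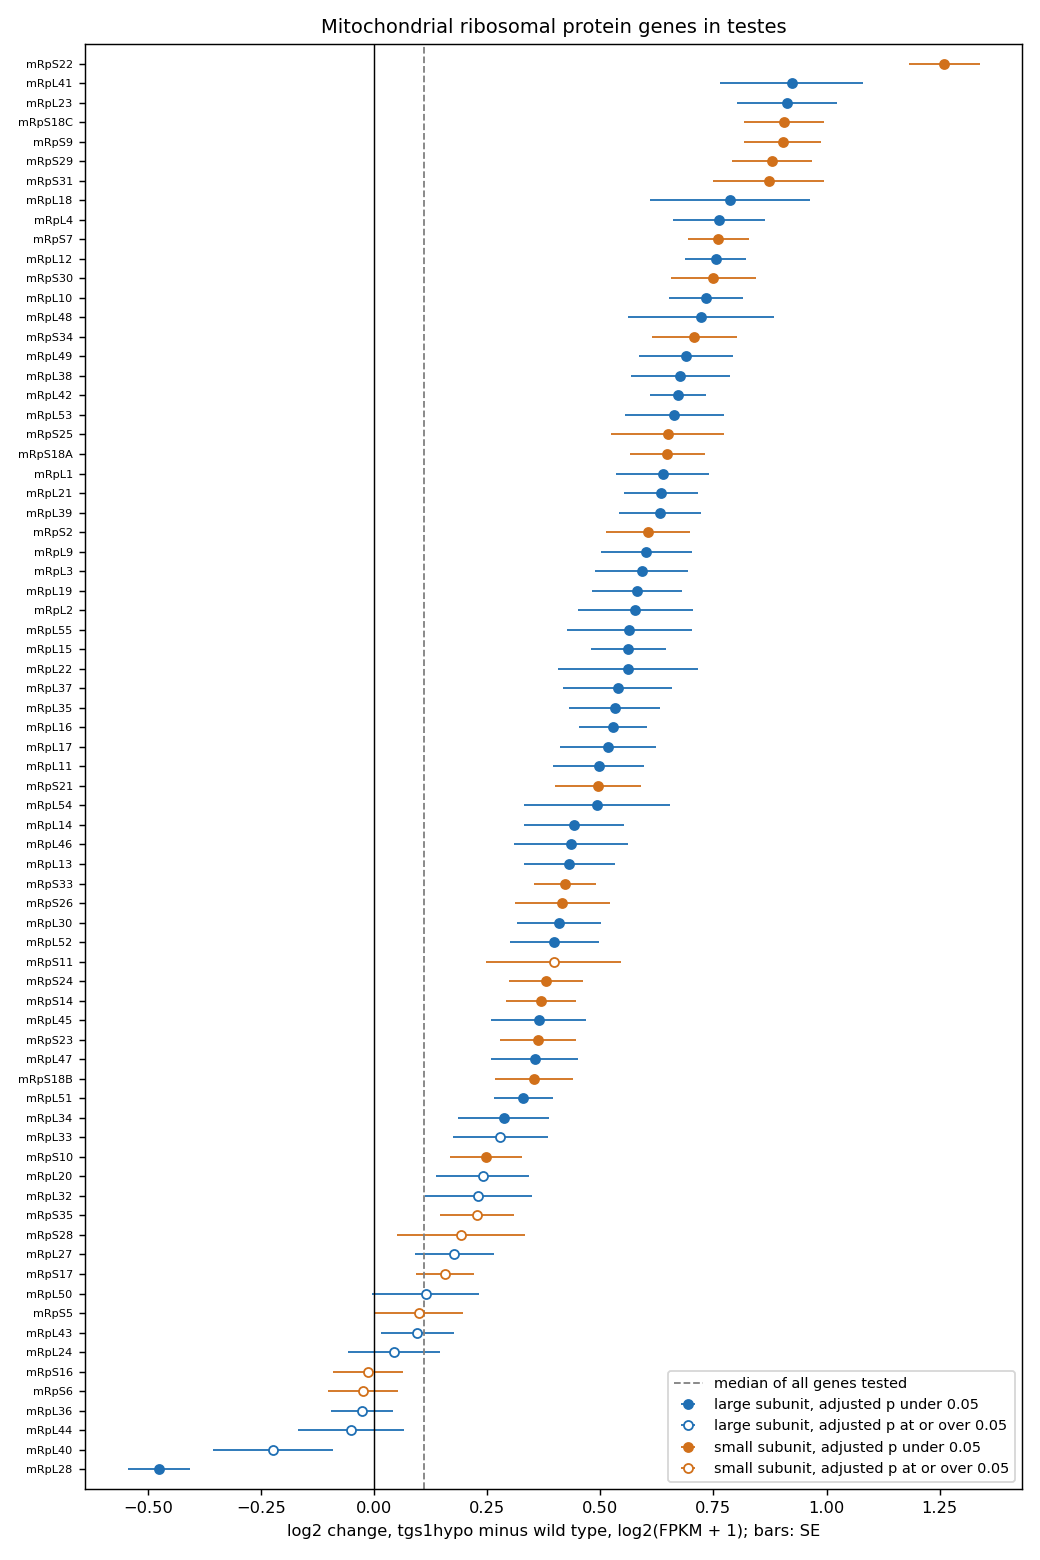
Log2 change (tgs1hypo minus wild type, on log2(FPKM + 1), horizontal axis) of each of the 73 members in testes, with the standard error as bars; 2 libraries per group. Filled points passed an adjusted p of 0.05. The members form a continuous range from -0.48 for mRpL28 to 1.26 for mRpS22, and 64 of 73 lie to the right of the median of all genes (dashed, 0.11).

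Both mutant libraries lay above both wild-type libraries for 64 of 73 members (47.7% of all genes tested), the log2 change was above 0 for 67 members (57.7%) and both mutant libraries lay below for 1 member (32.6% of all genes). For the other 8 members, mRpL24, mRpL36, mRpL40, mRpL44, mRpL50, mRpS5, mRpS6 and mRpS16, the groups overlapped. The summed level of the members was 1607 and 1526 FPKM in the wild-type and 2208 and 2193 FPKM in the tgs1hypo libraries, or 0.203% and 0.185% against 0.270% and 0.273% of the library's FPKM. The median member stood at the 68.0th percentile of the genes of its library in both wild-type libraries, and at the 72.0th and the 72.4th percentile in the mutant libraries. The median spread between replicates of a member was 0.07 in wild type and 0.06 in tgs1hypo (SD of log2(FPKM + 1), n = 2), which is smaller than the median change. With median-of-ratios scaling, which moves the median of all genes from 0.11 to 0.01, 50 members passed as higher (27.4% of all genes) and 1 as lower (27.1%).

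Markers of cell types moved in the same libraries. Of 10 male germline genes 5 rose (aly, twe, fzo, vas and bgcn) and 4 fell (Mst87F, dj, can and sa). Of all genes tested 34.3% rose and 23.4% fell. The summed level of the 10 was 6770 and 7500 FPKM in wild type against 4729 and 4637 FPKM in tgs1hypo, most of it from Mst87F. That gene alone read 5587 and 6127 FPKM in wild type against 3755 and 3710 FPKM in tgs1hypo, so the sum does not reflect the 5 that rose. Of 5 genes of somatic cyst and hub cells 4 were tested: eya rose (0.62, limma adjusted p = 0.0015), Fas3 fell (-0.36, adjusted p = 0.011), zfh1 did not pass (0.31, adjusted p = 0.079), and upd1, the ligand made by the hub, fell from 9.05 and 9.13 FPKM to 2.63 and 2.45 FPKM (-1.51, adjusted p = 0.00014). The summed level of the 5 was 55.0 and 51.8 FPKM in wild type against 50.6 and 53.0 FPKM in tgs1hypo. Of 5 accessory gland genes, all of them detected, 4 fell (23.4% of all genes) and 0 rose (34.3%). The muscle genes Act57B and Mhc fell as well, with log2 changes of -1.04 (adjusted p = 0.0002, limma) and -0.85 (adjusted p = 0.0013). The study reported by microscopy that tgs1hypo testes arrest in meiosis and lack post-meiotic cells, so the compared testes differ in their cell types. The part of cell types in the members' change was not tested.

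Few members also passed the limit on size. With a log2 change of at least 1 in either direction asked for beside the adjusted p, 1 member was called higher (3.54% of all genes tested were) and 0 were called lower (7.11% of all genes). At an unadjusted p under 0.05, 59 members were higher (37.5% of all genes) and 1 was lower, mRpL28 (25.2%). The called member was mRpS22 (FBgn0039555, 3R from 27916908 to 27918248 of the BDGP6.54 annotation), for a protein of the small subunit that bacterial ribosomes lack. It read 28.6 and 25.7 FPKM in wild type against 68.0 and 64.7 FPKM in tgs1hypo. The mutant values were far above the wild-type values, with a change of 1.26 on the log2 scale (SE 0.08, limma adjusted p = 4.9e-05). Without wild-type replicate 1 the log2 changes of mRpL18 (1.05), mRpL23 (1.03) and mRpS31 (1.03) also reached 1. That of mRpL41 did so without wild-type replicate 2 (1.01) and without tgs1hypo replicate 1 (1.14). The change of mRpS22 ranged from 1.19 to 1.33 with each library left out.

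Among the next largest rises, those for proteins of the large subunit were mRpL41 and mRpL23. mRpL41 read 8.17 and 9.40 FPKM in wild type against 15.0 and 20.5 FPKM in tgs1hypo (log2 change 0.92, SE 0.16, limma adjusted p = 0.0026). mRpL23, whose protein sits at the mouth of the tunnel through which the new chain leaves the ribosome, read 11.2 and 9.42 FPKM in wild type against 20.5 and 20.0 FPKM in tgs1hypo (log2 change 0.91, SE 0.11, adjusted p = 0.00058). In both genes the groups were well apart, with the mutant replicates of mRpL41 further from each other than those of mRpL23. mRpL12 and mRpL10 are named for their larval levels, among the 3 highest and the 3 lowest, and were paired as stalk genes after their values were seen. mRpL12, whose protein forms the stalk that recruits elongation factors, read 38.9 and 40.3 FPKM in wild type against 69.2 and 65.8 FPKM in tgs1hypo (log2 change 0.75, adjusted p = 0.00017). mRpL10, for the protein that holds the stalk to the particle, rose from 20.2 and 19.0 FPKM to 32.3 and 34.1 FPKM (log2 change 0.73, adjusted p = 0.0004). Both stalk genes had non-overlapping groups.

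In the small subunit the next largest rises were mRpS18C, mRpS9 and mRpS29. mRpS9, whose bacterial counterpart reaches the tRNA in the P site, read 16.4 FPKM in both wild-type libraries and 33.0 and 30.2 FPKM in tgs1hypo (log2 change 0.90, SE 0.09, limma adjusted p = 0.00021). mRpS29, a GTP-binding protein known in human cells as DAP3, read 17.3 and 15.4 FPKM in wild type against 31.0 and 30.8 FPKM in tgs1hypo (log2 change 0.88, SE 0.09, adjusted p = 0.00027). Their replicates were close and their groups did not overlap.

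The paralogues mRpS18A, mRpS18B and mRpS18C descend from 1 bacterial protein, and in mammals each occupies a place of its own in the mitochondrial ribosome, that of mRpS18A being in the large subunit. mRpS18C read 27.7 and 25.3 FPKM in wild type against 47.7 and 53.5 FPKM in tgs1hypo testes (log2 change 0.91, SE 0.09, limma adjusted p = 0.00023). mRpS18A read 37.0 and 36.8 FPKM in wild type against 62.5 and 54.5 FPKM in tgs1hypo (0.65, SE 0.08, adjusted p = 0.00075). mRpS18B read 20.4 and 19.6 FPKM in wild type against 24.6 and 27.0 FPKM in tgs1hypo (0.35, SE 0.09, adjusted p = 0.012). All 3 rose, mRpS18C by the largest and mRpS18B by the smallest amount, and the differences between their changes were not tested.

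**Figure D2:**
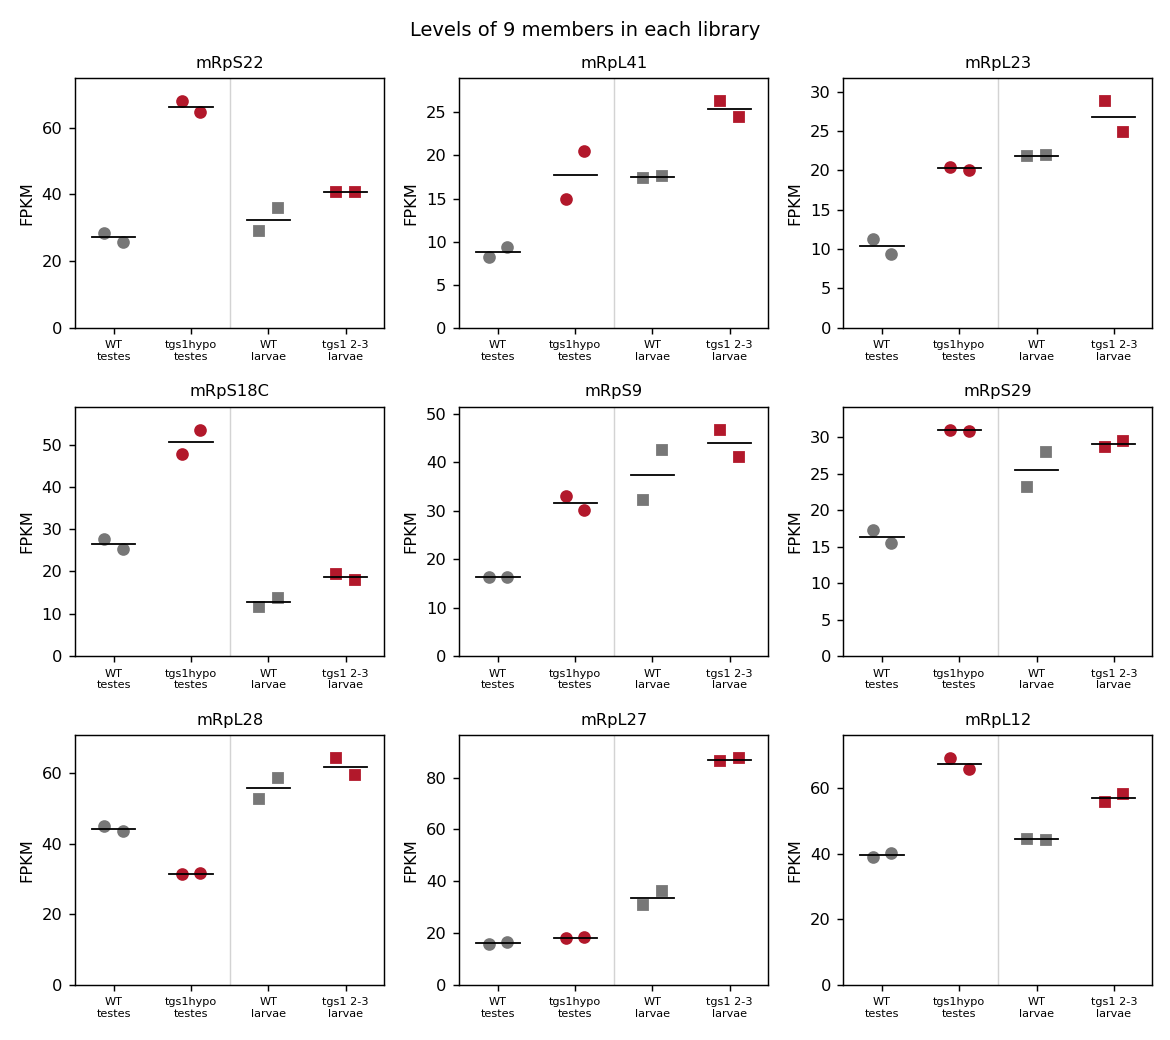
FPKM (vertical axes, each from 0) of 9 members in each of the 8 libraries, with wild type (WT) in grey, mutants in red, testes as circles, larvae as squares and the mean of each group as a line. The testis groups are apart for every gene shown, with mRpL28 the one that is lower in tgs1hypo, and mRpL27 has its largest difference in larvae (30.6 and 36.1 FPKM against 86.4 and 87.6 FPKM).

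mRpL28 (FBgn0031660, 2L from 4973976 to 4975316), for a protein of the large subunit, went the other way. It read 44.9 and 43.5 FPKM in wild-type testes and 31.4 and 31.6 FPKM in tgs1hypo testes. Neither mutant library reached a wild-type value, and the log2 change was -0.48 (SE 0.07, limma adjusted p = 0.0012), in a range of -0.58 to -0.43 over the alternative settings. By its mean over the testis libraries it was at place 15 of the 73 members. In larvae mRpL28 was at place 2 of the members by its mean over the 4 libraries. It read 52.8 and 58.6 FPKM in wild type against 64.2 and 59.4 FPKM in tgs1 2-3, where the groups just missed overlapping and the log2 change of 0.15 did not pass the test.

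The remaining 17 members did not pass in testes, with log2 changes from -0.22 (mRpL40) to 0.40 (mRpS11). The members nearest to 0 were chosen after their values were seen. mRpS16 read 32.7 and 31.0 FPKM in wild type against 30.4 and 32.7 FPKM in tgs1hypo. mRpL36 read 40.8 and 39.4 FPKM in wild type against 38.8 and 39.9 FPKM in tgs1hypo, and mRpS6 read 25.1 and 24.3 against 24.1 and 24.3 FPKM. The groups of all of these overlapped. mRpS5, which was in the testis table only, read 18.4 and 19.0 FPKM in wild type against 21.4 and 18.8 FPKM in tgs1hypo, with a log2 change of 0.10 that turned to -0.01 under median-of-ratios scaling and quantile normalization.

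The other members of the testis table alone rose. mRpL53 read 38.6 and 31.6 FPKM in wild type against 59.2 and 52.8 FPKM in tgs1hypo (log2 change 0.66, limma adjusted p = 0.0022), but lies wholly within AGO1 and CG33155. mRpL13 read 9.12 and 9.48 FPKM against 12.8 and 12.9 FPKM (0.43, adjusted p = 0.0097) and lies wholly within CG10602 on the same strand, a gene that fell (-0.29, adjusted p = 0.017). mRpS14 read 24.9 and 26.0 FPKM against 34.2 and 32.1 FPKM (0.37, adjusted p = 0.0063). It overlaps CG32533 by 30 bases on the same strand and Naa15-16 by 255 of its 857 bases on the opposite strand. mRpL53, mRpL13 and mRpS14 are the 3 members that overlap a gene on the same strand, and all lack a larval value. Whether their larval reads were counted in those genes was not tested, so the missing values do not show missing RNA. mRpS34 is in both tables under different identifiers, so it was not joined. It read 20.7 and 19.2 FPKM in wild-type against 31.1 and 35.4 FPKM in tgs1hypo testes (0.71, adjusted p = 0.00085), and 18.0 and 20.9 FPKM in wild-type against 28.1 and 22.9 FPKM in tgs1 2-3 larvae (0.37, not past the test). For each of these 4 genes the testis groups did not overlap.

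In the 64 annotated members with an intron the shortest one ranged from 51 to 170 bases. In testes the 7 members without an intron had a median log2 change of 0.79 (range 0.33 to 1.26), against 0.37 for all 1410 protein-coding genes without one. The 64 members with an intron had a median of 0.49, against 0.11 for 8692 such genes. A shortest intron of at most 60 bases, a limit chosen after the members' values were seen, went with a median of 0.40 (33 members) and a longer one with 0.56 (31 members), where all protein-coding genes of these kinds had 0.09 and 0.13. Across the 64 members with an intron, Spearman's rho between the length of the shortest intron and the log2 change was 0.27 in testes. In larvae rho was -0.04 over 61 members. These are descriptions of the members, which share their libraries and differ in length and level.

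The splice sites of single introns of mRpL36, mRpL44, mRpS23 and mRpS6 are shown because splicing is the process that the trimethylguanosine cap is studied for, and because mRpL36, mRpL44 and mRpS6 are among the members whose groups overlapped in testes. They were taken from the list of introns that the study called affected in tgs1hypo testes, so they were chosen on that readout, and only a part of the list could be read, so nothing was counted over it. An intron of mRpL34 is on it too and is not printed here. Each run is written 5′ to 3′ on the gene's strand with 3 bases of exon beside the intron, and the capitals mark the GT and AG ends of the intron. The introns lie on the minus strand at 3L from 8125039 to 8125092 (mRpL36, 54 bases), 3R from 5470460 to 5470511 (mRpL44, 52 bases) and 2L from 13834884 to 13834938 (mRpS23, 55 bases), and on the plus strand at 3L from 4364746 to 4364811 (mRpS6, 66 bases), in FlyBase release 6 coordinates.
mRpL36, start of the intron: aagGTgagc
mRpL44, start of the intron: ctgGTgagt
mRpS6, start of the intron: cgcGTgagt
mRpS23, start of the intron: cagGTattt
mRpL36, end of the intron: aatgaaaatgcaaatttcAGatg
mRpL44, end of the intron: gtaatcgtgattttcggcAGtgc
mRpS6, end of the intron: gaattgtacaccgcccgcAGccc
mRpS23, end of the intron: taaacacccgactcttgcAGagt
The level of mRpS23, whose intron begins with other bases after GT than the rest, was 18.9 and 17.7 FPKM in wild-type against 24.2 and 23.4 FPKM in tgs1hypo testes (log2 change 0.36, limma adjusted p = 0.0098). FPKM per gene does not separate spliced from unspliced RNA, so these levels say nothing of the introns.

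Of the 72 annotated members 43 overlap another gene, 3 of them on the same strand, and the use of strand in the counting is not given in the sources used here. Reads of such neighbours can therefore be shared. Boh1 overlaps mRpS22 by 67 bases and rose from 5.81 and 5.21 FPKM to 9.57 and 9.09 FPKM (log2 change 0.67, limma adjusted p = 0.0033). Gmd overlaps mRpL28 by 17 bases and had a log2 change of -0.16 (adjusted p = 0.31). Of the genes beside the other large rises, CG8993 at mRpL23 (0.62), CG11808 at mRpL41 (0.39), CG15536 at mRpS18C (0.40) and qkr58E-2 at mRpS29 (0.45) rose, wtrw at mRpS9 fell (-0.74), and ArgRS-m at mRpS9 did not pass (0.06). The median log2 change was 0.53 for the 42 overlapping and 0.43 for the 29 non-overlapping members tested in testes.

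The same tissue was examined for the other genes of mitochondrial gene expression, as lists of known members. Of the mitoribosomal proteins with another symbol, bonsai, the counterpart of bacterial S15, rose from 20.4 and 18.7 FPKM to 32.0 and 32.4 FPKM (log2 change 0.69, limma adjusted p = 0.00054). tko (technical knockout), the counterpart of bacterial S12 and known for bang-sensitive mutants, read 13.7 and 12.7 FPKM in wild type against 12.2 and 13.7 FPKM in tgs1hypo, and its groups overlapped.

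Among 10 mitochondrial translation factors 4 rose and 1 fell, where 34.3% and 23.4% of all genes did (median log2 change 0.22). The elongation factor mEFG1, which moves the ribosome along the mRNA, read 9.85 and 8.49 FPKM in wild type against 20.2 and 19.6 FPKM in tgs1hypo (log2 change 1.04, limma adjusted p = 0.0003). mEFTu1, which brings charged tRNA, rose from 37.6 and 31.8 FPKM to 60.9 and 62.1 FPKM (0.81, adjusted p = 0.00042). The initiation factor mIF3 fell from 11.0 and 7.83 FPKM to 6.58 and 5.65 FPKM (-0.54, adjusted p = 0.034). The groups of each did not overlap. The second EF-Tu gene, mEFTu2, read 167 and 175 FPKM in wild type against 192 and 188 FPKM in tgs1hypo (0.15, adjusted p = 0.056), and mEFTs, for the factor that recycles EF-Tu, read 311 and 324 FPKM against 308 and 319 FPKM. Both were above the level of every mRpL and mRpS member in each testis library.

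Of 13 mitochondrial aminoacyl-tRNA synthetases 4 rose and 2 fell, against 34.3% and 23.4% of all genes (median 0.21). MetRS-m rose from 6.76 and 5.86 FPKM to 12.5 FPKM in both tgs1hypo libraries (log2 change 0.89, limma adjusted p = 0.00086). The falls were CysRS-m, from 167 and 173 FPKM to 137 and 136 FPKM (-0.31, adjusted p = 0.003), and TrpRS-m, from 414 and 438 FPKM to 359 and 380 FPKM (-0.21, adjusted p = 0.028), which are the synthetases with the highest levels in these testes. Their groups did not overlap. Of 12 factors for mitochondrial transcription and rRNA processing 9 rose (34.3% of all genes) and 0 fell (median 0.44), and 0 were lower at an unadjusted p under 0.05. mtTFB1, whose human counterpart methylates the rRNA of the small subunit, rose from 66.9 and 58.8 FPKM to 157 and 160 FPKM (1.32, adjusted p = 3e-05), the largest change of its list. TFAM, which packs the mitochondrial genome and is a factor for its transcription, rose from 27.1 and 26.7 FPKM to 34.7 and 37.8 FPKM (0.42, adjusted p = 0.0038).

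Of the 12 mitochondrial-genome protein genes tested, the mRNAs that this ribosome translates, 11 rose (34.3% of all genes) and 0 fell in testes (median log2 change 0.93), 6 of them by a log2 change of at least 1. mt:ND2 rose from 463 and 392 FPKM to 1177 and 1347 FPKM (1.56, limma adjusted p = 6e-05), and mt:CoI from 3947 and 3969 FPKM to 7275 and 7098 FPKM (0.86, adjusted p = 0.00035). Their mutant libraries were the higher ones by far. The exception, mt:ND6, read 91.0 and 84.6 FPKM in wild type against 171 and 11.5 FPKM in tgs1hypo, so its mutant replicates disagreed. The rRNA of the large subunit, mt:lrRNA, rose from 17070 and 15082 FPKM to 25689 and 30617 FPKM (0.81, adjusted p = 0.0059). All of these are levels in poly(A)-enriched RNA, and the rRNA of the small subunit, mt:srRNA, read 70.4 and 45.1 FPKM in wild type against 63.8 and 67.8 FPKM in tgs1hypo, with overlapping groups. Ribosomal proteins of the cytoplasm, a comparison chosen after the data were seen, had a median log2 change of 0.28 in testes, with 70 of 92 genes higher (34.3% of all genes) and 2 lower (23.4%) at an adjusted p under 0.05.

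**Figure D3:**
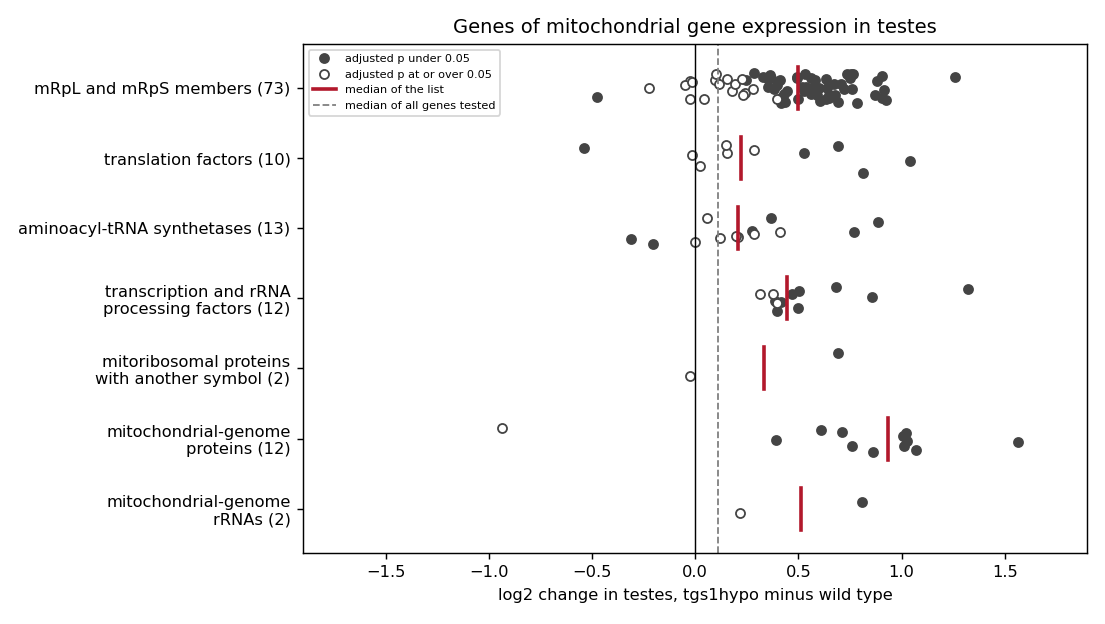
Log2 change in testes (tgs1hypo minus wild type, horizontal axis) of the members and of 6 lists of genes for mitochondrial gene expression, 1 point per gene, with the number of genes tested in parentheses. Filled points passed an adjusted p of 0.05, red lines are list medians (0.50 for the members, 0.93 for the mitochondrial-genome proteins) and the dashed line is the median of all genes.

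In larvae 0 of 69 members were called and 0 had an adjusted p under 0.05 with limma, and the same held for all 9545 genes tested (0.0%). Of the members 12 were higher at an unadjusted p under 0.05 (7.0% of all genes tested) and 0 were lower (0.775%), while 1 member was higher at that limit with median-of-ratios scaling and 2 with quantile normalization. The median log2 change was 0.38 for the members (quartiles 0.25 and 0.52) and 0.25 for all genes tested, so the median member lay 0.128 above the median gene. Both mutant libraries lay above both wild-type libraries for 60 of 69 members (43.1% of all genes tested) and below them for 0 (4.46%). The log2 change was above 0 for 69 of 69 members (80.2% of all genes), but for 51 of 69 with median-of-ratios scaling and 53 of 69 with quantile normalization, which bring the median of all genes from 0.25 to 0.01 and 0.02.

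The summed level of the members was 1489 and 1529 FPKM in wild-type against 2064 and 1958 FPKM in tgs1 2-3 larvae, or 0.233% and 0.257% against 0.350% and 0.329% of the named FPKM. The median member stood at the 87.1th and 86.7th percentile of its library in wild type and at the 88.5th and 87.7th in tgs1 2-3. The distance between the median member and the median gene was 0.226 without wild-type replicate 1, the library with the high share of mitochondrial-genome RNA, 0.0615 without wild-type replicate 2, 0.0843 without tgs1 2-3 replicate 1 and 0.215 without tgs1 2-3 replicate 2, the library with the serum proteins. The part of these library differences in the members' values was not tested.

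**Figure D4:**
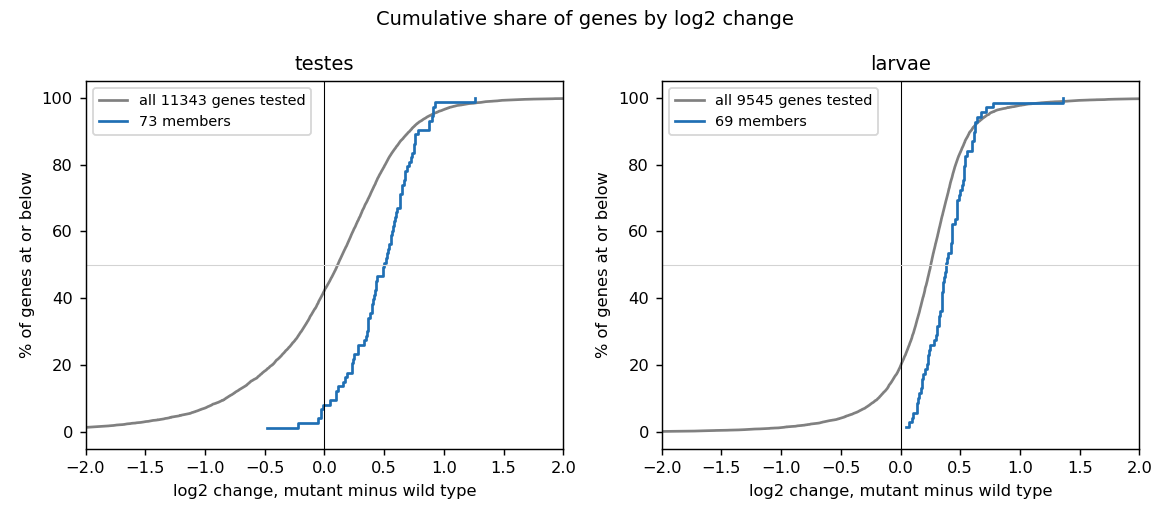
Share of genes (vertical axis, %) at or below each log2 change (mutant minus wild type, horizontal axis, shown from -2 to 2) for the members and for all genes tested, in testes (left) and larvae (right). At 50% the members' curve crosses at 0.50 and that of all genes at 0.11 in testes, and at 0.38 and 0.25 in larvae, where the position relative to 0 depends on the scaling of the libraries.

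mRpL27, for a protein that in bacteria reaches to the site where the peptide bond forms, had the largest difference in larvae. It read 30.6 and 36.1 FPKM in wild-type against 86.4 and 87.6 FPKM in tgs1 2-3 larvae. The mutant libraries were close to each other and well above both wild-type libraries, but the log2 change of 1.36 (SE 0.22, unadjusted p = 0.0016) had an adjusted p of 0.36 from limma, the smallest of the members. Over the alternatives the change ranged from 1.08 to 1.48 and its adjusted p from 0.26 to 0.95. mRpL27 (FBgn0053002, 2L from 4458595 to 4459638) overlaps no annotated gene. In testes it read 15.6 and 16.3 FPKM in wild type against 18.1 and 18.3 FPKM in tgs1hypo (log2 change 0.18, adjusted p = 0.13).

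Next in larvae were mRpL54, with 17.8 and 18.6 FPKM in wild type against 30.6 and 33.0 FPKM in tgs1 2-3 (log2 change 0.77, SE 0.20), and mRpL37. mRpL37 read 7.32 and 9.07 FPKM in wild type against 18.0 and 11.0 FPKM in tgs1 2-3 (0.72, SE 0.30), so its mutant replicates were far apart. Neither passed the test, each with an adjusted p of 0.57 from limma. The smallest differences were those of mRpL45, mRpL34 and mRpS17. mRpL45, which in human mitochondria ties the ribosome to the inner membrane, read 28.5 and 40.5 FPKM in wild type against 38.1 and 32.5 FPKM in tgs1 2-3. mRpL34 read 11.1 and 6.98 FPKM in wild type against 9.46 and 9.16 FPKM in tgs1 2-3. mRpS17 read 21.7 and 19.7 FPKM against 21.1 and 23.3 FPKM. The groups of these 3 genes overlapped.

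The level of mRpS22, the member called in testes, was 29.1 and 35.8 FPKM in wild-type against 40.8 and 40.7 FPKM in tgs1 2-3 larvae (log2 change 0.33, limma adjusted p = 0.59). The highest larval levels were those of mRpL27, mRpL28 and mRpL12, the last at 44.5 and 44.2 FPKM in wild type against 55.6 and 58.1 FPKM in tgs1 2-3. The lowest levels by that mean were those of mRpL34, mRpL21 (8.10 and 7.07 against 10.8 and 11.5 FPKM) and mRpL10 (8.69 and 9.67 against 10.3 FPKM in both mutant libraries). The stalk genes mRpL12 and mRpL10 thus stood near opposite ends of the larval order. Of the paralogues, mRpS18C had a log2 change of 0.53, mRpS18B of 0.43 and mRpS18A of 0.39 in larvae, none past the test.

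The other lists had 0 genes past an adjusted p of 0.05 in larvae. Their median log2 changes were 0.43 for the translation factors (8 genes), 0.43 for the synthetases (15), 0.32 for the transcription and rRNA processing factors (11) and -0.02 for the mitochondrial-genome proteins (9), with -0.04 for cytoplasmic ribosomal proteins (80).

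Over the 68 members in both tables, both mutant libraries were higher in both tissues for 51 (29.8% of the 7398 genes tested in both). In 9 the mutant libraries were higher in testes and overlapped wild type in larvae (mRpL19, mRpL33, mRpL34, mRpL42, mRpL45, mRpL49, mRpS9, mRpS17 and mRpS21). In 7 it was the reverse (mRpL24, mRpL36, mRpL40, mRpL44, mRpL50, mRpS6 and mRpS16). The shares of all genes in these smaller classes were not counted, so whether the members stand out in them is not known. 1 member, mRpL28, was lower in testes and higher in larvae as deposited, the latter turning to -0.13 with median-of-ratios scaling and to -0.08 with quantile normalization. The tissues carry different mutations and their tables were normalized separately, so no test between them was made.

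**Figure D5:**
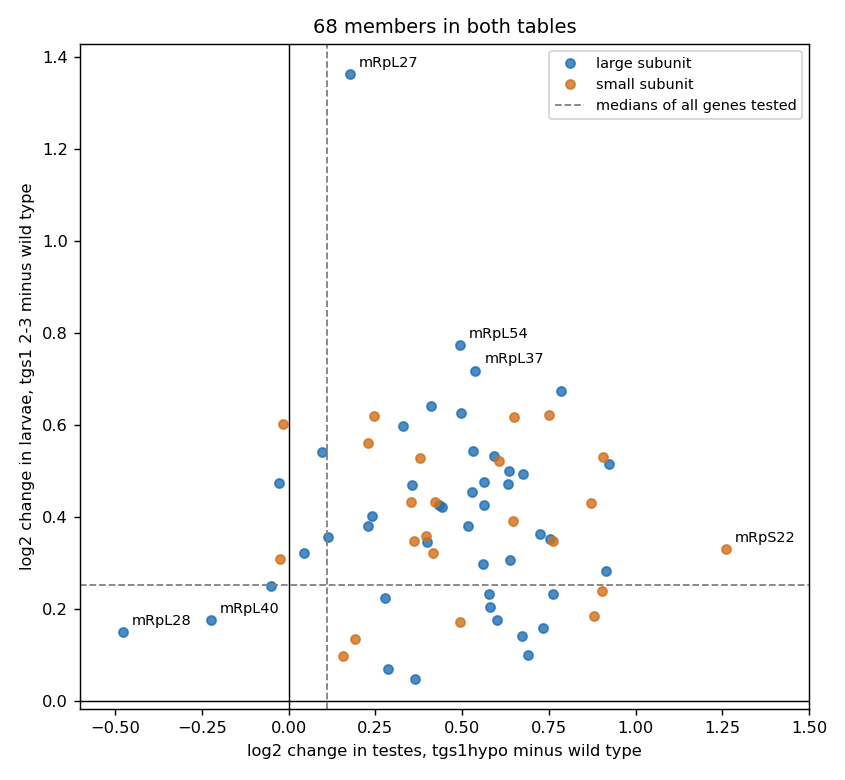
Log2 change in testes (horizontal axis, tgs1hypo minus wild type) against that in larvae (vertical axis, tgs1 2-3 minus wild type) for the 68 members in both tables, 1 point per gene. mRpS22 stands to the right (1.26 and 0.33), mRpL27 at the top (0.18 and 1.36) and mRpL28 to the left (-0.48 and 0.15). The larval changes above 0 number 69 of 69 in the larval table as deposited and 51 of 69 with median-of-ratios scaling.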

How the data were processed

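The authors filtered the reads, mapped them with HISAT2 to FlyBase release 6.16 and deposited an FPKM value per gene and library, in 1 table for testes and 1 for larvae. featureCounts and DESeq2 are the tools its methods name for expression, and the tool behind the FPKM values is not given in the sources used here. Replicates were not pooled, and 1167 larval entries without a gene identifier were left out.

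Values were put on log2(FPKM + 1). Genes whose mean over the 4 libraries of a tissue reached 1 FPKM entered limma 3.58.1 in R 4.3.3 (lmFit and a trended eBayes), in which genotype was the sole term, apart for each tissue, and p-values were adjusted by Benjamini-Hochberg over all genes tested. Calls needed an adjusted p under 0.05 together with a log2 change of 1 or more in size. An exact permutation test of 2 libraries against 2 cannot go below p = 0.333 and was not used. The fit was tested on simulated data. Tables were handled with Python 3.11.15 and pandas 2.3.3, and drawn with matplotlib 3.10.9. Positions and introns came from the BDGP6.54 annotation of Ensembl release 115, which holds 98.5% of the testis and 99.2% of the larval identifiers. The levels carry no counts, and 2 libraries per group limit the precision.

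The members, the gene lists and the tests were chosen with earlier results of these data known. Values are given in every library for members called in either tissue, the 6 largest rises and the falls in testes, the 3 largest and 3 smallest changes in larvae, the 3 highest and 3 lowest levels in each tissue, the mRpS18 paralogues and members of 1 table only. Members named beyond this were chosen after their values were seen, and mRpS23 because the study's intron list holds it. As alternatives, the pseudocount was set to 0.1, the filter was dropped or raised to 5 FPKM, libraries were scaled by median of ratios, by quantiles or to a sum of 1000000 with and without mitochondrial-genome genes, calls were made on the adjusted p alone or at 0.01, and the trend was left out, beside a replicate block and each library left out in turn. Promoter sequences were not analysed here.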

Additional observations from a re-analysis of the deposited data

Results flagged for a closer look

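mRpL28 had log2 changes of opposite sign in the tissues, and in neither did a mutant library fall among the wild-type values. The larval change did not pass the test (SE 0.21, limma adjusted p = 0.75) and lay below the larval median of all genes tested (0.25). The log2 change was -0.477 in testes (44.9 and 43.5 FPKM in wild type against 31.4 and 31.6 FPKM in tgs1hypo) and 0.1493 in larvae (52.8 and 58.6 FPKM in wild type against 64.2 and 59.4 FPKM in tgs1 2-3). The difference between the tissues was not tested, because they carry different mutations and separate tables. The larval sign turned with median-of-ratios scaling (-0.13) and quantile normalization (-0.08), while the testis sign was the same under every alternative run.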

How the results depend on the processing

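In testes the distance between the median member and the median gene, 0.385, was 0.445 with no filter, 0.334 with a filter at 5 FPKM, 0.312 with quantile normalization and 0.340 to 0.424 with each library left out. Members called higher ranged from 1 to 4 with each library left out. With the adjusted p alone 55 members were higher and 1 lower. Members with an adjusted p under 0.05 numbered 51 to 58 over the alternatives that keep that limit and all libraries. Over the same alternatives 3108 to 4078 of all genes tested were higher and 2045 to 3072 lower. At 0.01, 43 members were higher and 1 lower, where 2756 of 11343 genes were higher and 1999 lower. In larvae the distance, 0.128, was 0.255 with no filter and 0.0615 to 0.226 with each library left out, and 0 members were called under any alternative.

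Named members changed sign as follows. In testes mRpS5 was -0.0051 with median-of-ratios scaling and -0.014 with quantile normalization, and mRpL44 ranged from -0.107 to 0.0043 with each library left out (0.0043 without wild-type replicate 1). In larvae, with median-of-ratios scaling and with quantile normalization in that order, mRpL10 was -0.0997 and -0.104, mRpL28 -0.130 and -0.0807, mRpL34 -0.188 and -0.183, mRpL42 -0.138 and -0.0957, mRpL44 -0.0084 and -0.0063, mRpL45 -0.227 and -0.189, mRpS17 -0.175 and -0.146, mRpS21 -0.101 and -0.0584, mRpS28 -0.136 and -0.115, and mRpS29 -0.0898 and -0.0556. mRpS9 was -0.0388 with median-of-ratios scaling. Without mitochondrial-genome genes mRpL34 was -0.0030 and mRpL45 -0.0297. With each library left out mRpL45 ranged from -0.198 to 0.294 (below 0 without wild-type replicate 1, and at -0.0627 without tgs1 2-3 replicate 1), mRpL34 from -0.233 to 0.370 and mRpS21 from -0.011 to 0.354 (both below 0 without wild-type replicate 2), and mRpL42 from -0.0386 to 0.318 (below 0 without tgs1 2-3 replicate 2). None of these had passed the test. The cause was not tested.

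Same-numbered replicates deviated together with r = 0.13 in testes and -0.17 in larvae. With the replicate number as a block 55 members were higher and 1 lower at an adjusted p under 0.05 in testes (56 in all). Of the 11343 genes tested there 3836 were higher and 2679 lower. In larvae 0 members passed, and 0 of all genes did. Nothing ties the numbers to a shared culture, so they are taken as names. A crossed pairing in larvae, chosen after the data were seen, called 0 members.

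Whole libraries differ in larvae, and 2 libraries per group leave a median spread between replicates of 0.24 in wild type (SD of log2(FPKM + 1), all genes tested) against 0.09 in testes. Without counts, depth and counting error are unknown. Levels per gene cannot separate isoforms, spliced from unspliced RNA, or neighbours that share reads. When a library is left out, its partner has no replicate, and its spread is taken from the other genotype.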
